A study of Mus musculus with 6 samples.

Results

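The miR-466 and miR-297 families are groups of mouse miRNAs, most of whose genes lie in an intron of Sfmbt2. Their members were taken as every miRNA of the deposited count table whose name starts with mmu-miR-466 or mmu-miR-297, with any letter and arm. That gave 37 of 1907 miRNAs, 31 of the miR-466 and 6 of the miR-297 family. Small RNA was sequenced from 2 mouse embryonic stem cell (ESC) lines of strain C57BL/6, RB18 and RB20, in 3 media, and each of the 6 libraries came from a pool of independently grown cultures. The lines were derived in R2i and then kept in R2i, or moved to 2i or to serum for more than 10 passages. All media held 1000 U/ml LIF. Serum medium contained 15% fetal bovine serum. The 2i and R2i media were both serum free. The 2i medium contained PD0325901 (1 µM), which inhibits MEK, and CHIR99021 (3 µM), which inhibits GSK3. R2i contained 1 µM PD0325901 with SB431542 (10 µM), which inhibits TGF-β receptors.

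Sfmbt2 encodes a Polycomb group protein and is imprinted in mouse, with expression from the paternal allele in early embryos and extraembryonic tissue. One of its introns holds a large rodent-specific miRNA cluster made of repeated copies of the miR-297, miR-466, miR-467 and miR-669 hairpins. A miRNA represses mRNAs that pair with its seed, and because the copies are so alike, a read can often be assigned to several of them.

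The RefSeq sequence table (GRCm38.p6) held the mature sequence of 4 of the 37 members, each from a gene outside Sfmbt2. They are shown because their alternating bases illustrate the repeat-like composition of the family; bases 2 to 8, the seed, are in capitals. miR-466q lies at chr3:28419988-28420007, miR-466k at chr3:85467396-85467418, miR-466j at chr10:60960802-60960824 and miR-466i-3p at chr13:17747552-17747573, all on the plus strand.
miR-466q: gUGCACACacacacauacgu
miR-466k: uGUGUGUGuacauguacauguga
miR-466j: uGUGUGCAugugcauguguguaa
miR-466i-3p: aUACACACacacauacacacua
The seeds of the 4 differed from each other, and each was shared with 0 other mature miRNAs whose sequence could be compared. As the sequences of the other members were missing, whether those members share these seeds could not be tested. The longest run of a repeated dinucleotide of the kinds UG, GU, AC or CA was 12 bases in miR-466q, 10 in miR-466i-3p, 8 in miR-466k and 6 in miR-466j.

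The annotation placed 35 hairpin genes under the names of the families, 29 of them inside Sfmbt2 (chromosome 2, 10370510 to 10595253, plus strand, GRCm38). These 29 spanned 50.5 kb, from 10466663 to 10517164, and all lay in a single intron, numbered 10 or 11 in the protein-coding transcripts that have 23 exons. The other 6 genes lay on chromosomes 3, 7, 10 and 13. miR-466b had 8 genes and miR-466c had 3, all inside Sfmbt2, whereas miR-297a and miR-466f had 4 genes each, of which 1 was elsewhere. This placement gave each member all genes of its hairpin name. By it 27 members came from Sfmbt2 only, 5 from genes inside and outside it, and 5 (miR-466i-3p, miR-466i-5p, miR-466j, miR-466k and miR-466q) from outside. Which of its genes miR-466f, a row with no arm in its name, stands for is not given.

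Total miRNA counts were 1744187 (RB18) and 2243369 (RB20) for serum, 2057602 and 3365676 for 2i, and 1041858 and 3593356 for R2i. In each medium the library of RB18 was the smaller, so line and depth cannot be told apart. Counts are reads and not molecules, so that intervals and limits given here cover counting error only. A level of 3 counts, taken as the smallest that can be told from 0, equalled 2.57 TMM-scaled CPM (counts scaled to a common library size) in the R2i library of RB18 and 0.858 in that of RB20.

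Together the members took a larger share of all miRNA counts in serum than in either inhibitor medium. In serum they held 3631 counts in RB18, or 0.208% (95% Wilson interval 0.202 to 0.215), and 4294 in RB20, or 0.191% (0.186 to 0.197). In 2i they held 559 counts, or 0.0272% (0.0250 to 0.0295), and 822 counts, or 0.0244% (0.0228 to 0.0262). In R2i they held 472 counts, or 0.0453% (0.0414 to 0.0496), and 1636 counts, or 0.0455% (0.0434 to 0.0478). The 3 media did not overlap, with serum highest, R2i between and 2i lowest in both lines. The serum share was 7.66 times that of 2i in RB18 and 7.84 times in RB20, against 4.60 and 4.20 times for R2i. The share in R2i was 1.67 times that in 2i in RB18 and 1.86 times in RB20. With 2 libraries per medium, the exact two-sided permutation test gave p = 0.33 for each pair of media, the smallest p this design allows.

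**Figure D1:**
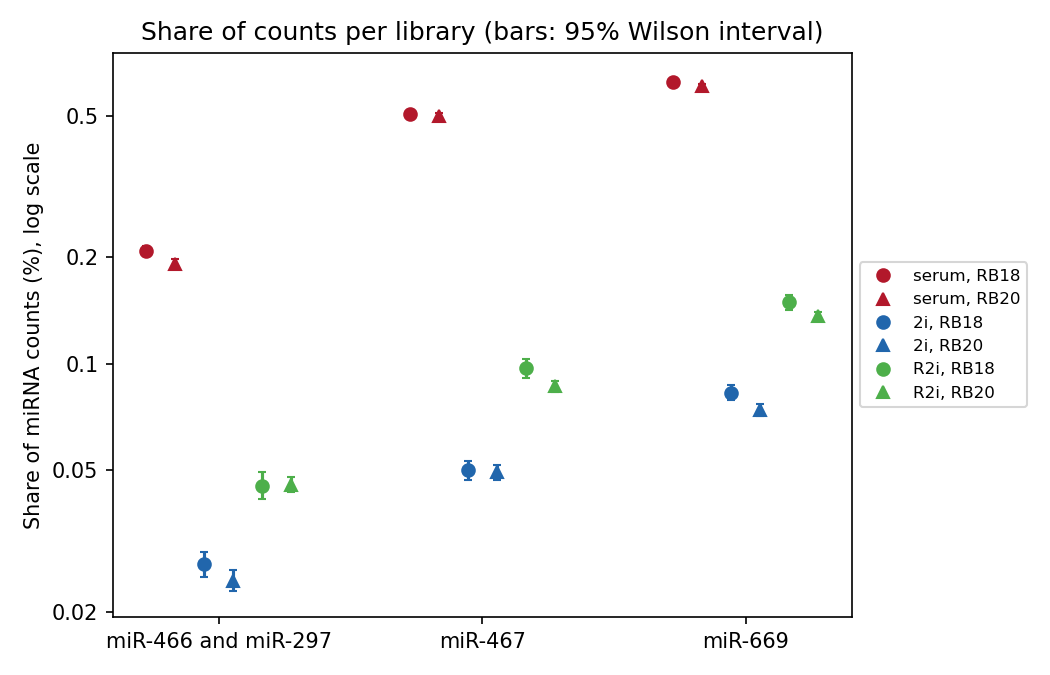
Share of all miRNA counts (%, log axis) taken by the miR-466 and miR-297 members and, for comparison, by the miR-467 and miR-669 families, with 1 point per library and 95% Wilson intervals as bars. The serum libraries lie highest and the 2i libraries lowest in each family; for miR-466 and miR-297 the values run from 0.0244% to 0.208%.

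The miR-466 and miR-297 families showed the same order of media when taken apart. In serum miR-466 members held 0.187% (RB18) and 0.173% (RB20), against 0.0252% and 0.0220% under 2i and 0.0408% and 0.0416% under R2i. For miR-297 these were 0.0212% and 0.0182% with serum, 0.00199% and 0.00241% with 2i, and 0.00451% and 0.00395% with R2i. In both families each serum value was above each R2i value, and each R2i value above each 2i value.

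Levels of single members differed widely. miR-466c-5p was the most abundant, with 338 and 407 TMM-scaled CPM in serum (RB18 and RB20), against 56.9 and 40.0 under 2i and 66.9 and 88.7 under R2i. miR-466b-3p averaged 309 ± 21.0 CPM in serum (SD, n = 2, from 592 and 594 counts), against 43.3 and 36.0 under 2i and 58.3 and 74.9 under R2i. miR-466b-5p, from the opposite arm of the same hairpins, averaged 224 ± 34.7 CPM in serum (SD, n = 2, from 364 and 501 counts), against 34.5 and 31.1 under 2i and 52.3 and 43.8 under R2i. In each of these the serum libraries were the highest and the media did not overlap.

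Next by mean CPM over all libraries, miR-466h-5p stood at 117 and 158 CPM in serum, against 16.0 and 18.9 under 2i and 23.2 and 34.0 under R2i. miR-466c-3p stood at 130 and 114 CPM in serum, against 18.0 ± 1.31 under 2i (SD, n = 2) and 29.2 and 35.8 under R2i. Its mean was below that of miR-466h-5p in serum but above it in 2i and in R2i. miR-466d-5p stood at 98.6 and 126 CPM in serum, against 8.26 and 13.4 under 2i and 16.3 and 21.5 under R2i. These also kept the order of serum, R2i and 2i with no overlap. miR-466n-5p stood at 102 and 109 CPM in serum, against 10.7 and 13.4 under 2i and 17.2 and 24.0 under R2i. miR-466n-3p stood at 93.6 and 77.3 CPM in serum, against 8.75 and 11.9 under 2i and 15.4 and 22.0 under R2i. Both arms of the miR-466n hairpin thus had similar levels, and again the media were separate.

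**Figure D2:**
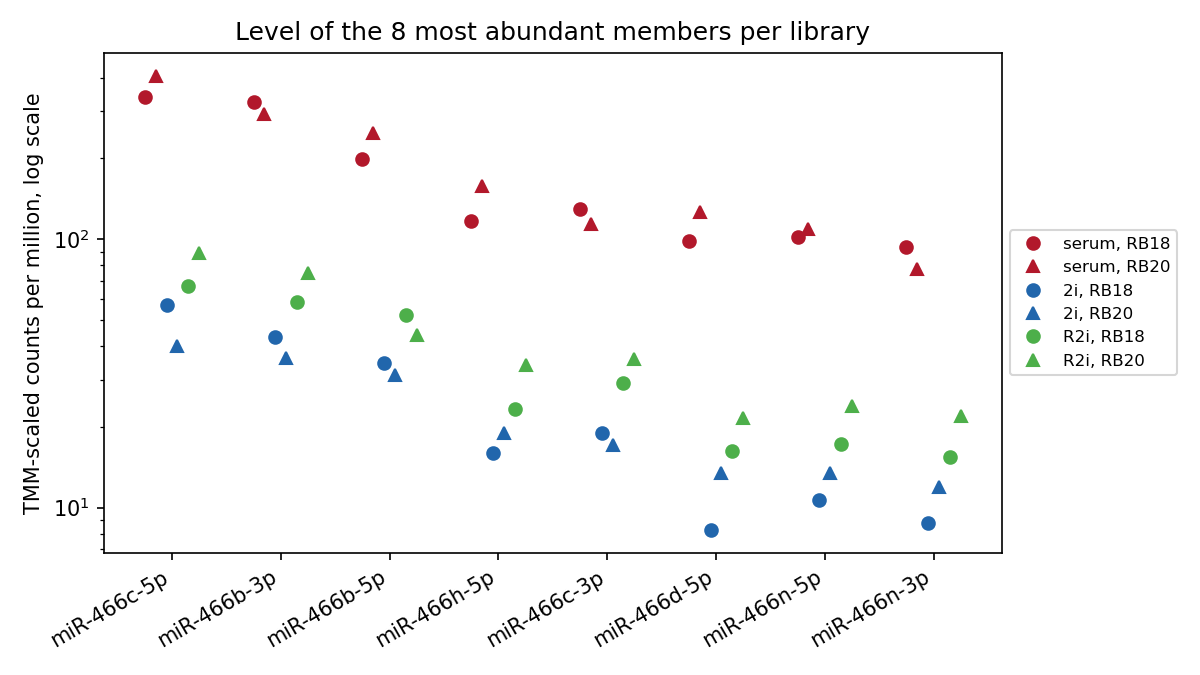
TMM-scaled CPM (log axis) of the 8 most abundant members, with 1 point per library, coloured by medium and shaped by cell line. In each member the serum libraries lie above the others, from 77.3 to 407 CPM, and the R2i libraries lie above the 2i libraries.

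At the other end, miR-466i-3p, miR-466i-5p, miR-466j, miR-466l-5p and miR-466q had at most 3 counts in every library, and no fold is given for them. Of these, 4 come from genes outside Sfmbt2, and miR-466i-5p had 0 counts in all 6 libraries. miR-466k, the remaining member from outside, had 16 and 31 counts with serum, 5 and 3 with 2i, and 3 and 9 with R2i, and was the only tested member with no gene inside Sfmbt2. Over all 37 members, both serum libraries were above all 4 others in 33, where this held for 12.5% of all 1907 miRNAs, a share that includes miRNAs with no counts. It held in 29 of the 29 members that passed the filter on low counts, where it held for 32.4% of all miRNAs that passed. For 10 of these 29, which passed through their serum counts alone, high serum values were built into the selection.

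For differential expression, 29 of the 37 members passed the filter on low counts, and 571 miRNAs in all were tested. Of the 29, 10 passed through their serum counts alone, so that being lower elsewhere was built into their selection: miR-297b-3p, miR-297c-3p, miR-297c-5p, miR-466f, miR-466f-3p, miR-466h-3p, miR-466k, miR-466l-3p, miR-466o-3p and miR-466p-5p. The other 19 would also have passed without serum, and 12 had at least 10 counts in every library. The 8 untested members were miR-466g, miR-466i-3p, miR-466i-5p, miR-466j, miR-466l-5p, miR-466m-3p, miR-466m-5p and miR-466q. Calls required more than a 2-fold change and, adjusted by Benjamini-Hochberg over all 571, a p under 0.01.

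In 2i against serum, 25 of the 29 tested members were called lower, where 17.3% of all tested miRNAs were called lower. Called higher were 0 members, against 16.8% of all tested miRNAs; at an unadjusted p under 0.05 edgeR, DESeq2 and limma likewise found 0 members higher. All 29 had a negative log2 fold change, in RB18 and in RB20 alike, where 239 of all 571 tested miRNAs were lower in both lines. The median log2 fold change of the tested members was -2.97, and that of all tested miRNAs was -0.03. Of the calls, 6 were among the 10 that passed through serum alone and 19 among the other 19, where 15.5% of the 530 miRNAs that passed without serum were called lower. With a minimum of 10 counts required in each library, 12 of 12 members were called lower, against 17.2% of 402 miRNAs. Without a filter 28 of 36 were, against 10.1% of all miRNAs then tested. Not called were miR-297c-5p, miR-466f-3p, miR-466l-3p and miR-466o-3p. Lower counts from fewer cells with these miRNAs and from less of them per cell cannot be told apart in these libraries.

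Among the abundant members, miR-466c-5p had a log2 fold change of -2.95 in 2i against serum (standard error, SE, 0.30; adjusted p = 0.00012, edgeR). miR-466b-3p fell by 2.97 on the log2 scale (SE 0.27, adjusted p = 7.9e-05, edgeR) and miR-466b-5p, from the same 8 gene copies, fell by 2.77. The log2 fold change was -2.96 for miR-466h-5p, -2.76 for miR-466c-3p, -3.34 for miR-466d-5p, -3.11 for miR-466n-5p and -3.02 for miR-466n-3p, and all 8 were called.

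The called members with the largest fitted change in 2i were miR-466h-3p, miR-466d-3p and miR-466f-5p, of which miR-466h-3p passed the filter through serum alone, so that a lower value was built into its selection. miR-466h-3p had 14 and 29 counts in serum and 2 and 0 in 2i, so that its log2 fold change of -4.67 is poorly known: the ratio of serum to 2i was 29.8, with an exact 95% counting interval of 7.77 to 254. With the cell line as a block its log2 fold change was -4.69 and its call was lost (adjusted p = 0.013, edgeR), as was that of miR-466k, at -2.93 with and without the block (adjusted p = 0.012, edgeR). The call of miR-466h-3p was also lost with limma (log2 fold change -3.72). It was lost too without the serum library of RB18 (-4.94), the serum library of RB20 (-4.19) or the 2i library of RB20 (-3.41). Without the 2i library of RB18, which left 0 counts in 2i, the fitted value was -7.69 and the call was kept. miR-466d-3p had 27.9 and 24.8 CPM in serum against 1.46 and 2.14 in 2i, and a log2 fold change of -3.79 (SE 0.42, adjusted p = 0.00018, edgeR). miR-466f-5p had 61.9 and 63.0 CPM in serum against 5.35 and 5.50 in 2i, and a log2 fold change of -3.51 (SE 0.33, adjusted p = 8.4e-05, edgeR). For miR-466d-3p and miR-466f-5p the serum and 2i libraries were far apart in both lines.

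In R2i against serum, which shares the serum libraries with the comparison above, 22 of the 29 tested members were called lower, where 15.6% of all tested miRNAs were called lower. Called higher were 0 members, against 15.1% of all; at an unadjusted p under 0.05 edgeR, DESeq2 and limma found 0 members higher. All 29 had a negative log2 fold change in both lines, where 237 of all 571 tested miRNAs were lower in both. The median of the members was -2.23, against -0.07 over all tested miRNAs. The count rested partly on single libraries: it was 12 without the serum library of RB18 (10.9% of all tested) and 11 without the R2i library of RB20 (8.77% of all tested), although all 29 log2 fold changes remained negative in both cases. Of the calls, 4 were among the 10 that passed through serum alone and 18 among the other 19, where 15.1% of the 530 miRNAs that passed without serum were called lower. With at least 10 counts required in every library, 12 of 12 members were called lower, against 16.9% of 402 miRNAs, and without a filter 25 of 36, against 9.0% of all then tested.

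miR-466c-5p had a log2 fold change of -2.25 in R2i against serum (SE 0.29, adjusted p = 0.00056, edgeR). The log2 fold change was -2.20 for miR-466b-3p, -2.23 for miR-466b-5p, -2.22 for miR-466h-5p, -1.89 for miR-466c-3p, -2.54 for miR-466d-5p, -2.32 for miR-466n-5p and -2.14 for miR-466n-3p, and each was called. The largest changes among called members belonged to miR-466p-5p, miR-466f and miR-297b-3p. All 3 passed the filter through serum alone, so that a value lower than serum was built into their selection. miR-466p-5p had 17.0 and 23.8 CPM in serum against 1.72 and 3.15 in R2i (log2 fold change -2.90, SE 0.65, adjusted p = 0.0078, edgeR). miR-466f, the row with no arm in its name, had 19.2 and 25.3 CPM in serum against 2.57 and 3.15 in R2i (-2.89, SE 0.47, adjusted p = 0.0016, edgeR). miR-297b-3p had 31.2 and 22.3 CPM in serum against 5.15 and 3.72 in R2i (-2.65, SE 0.41, adjusted p = 0.0013, edgeR). In all 3, both R2i libraries were below both serum libraries. Their calls depended on single libraries. miR-466p-5p lost its call with limma and without any 1 of the serum and R2i libraries, with log2 fold changes from -3.53 to -2.67. miR-466f lost it without the serum (-2.74) or the R2i library (-3.08) of RB20, and miR-297b-3p without the serum library of RB18 (-2.29) or the R2i library of RB20 (-2.36).

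In R2i against 2i, 0 of the 29 tested members were called, where 0.35% of all tested miRNAs were called lower and 0.0% higher. The log2 fold change was above 0 in 28 of the 29 (25 without the R2i library and 26 without the 2i library of RB20), with a median of 0.79 against -0.01 over all tested miRNAs. Over all 571 tested miRNAs it was above 0 in 281. In both lines the difference was positive for 24 members, and for 198 of all 571 tested miRNAs. Both R2i libraries were above both 2i libraries in 23 members, where this held for 27.1% of all tested miRNAs. At an unadjusted p under 0.05, 11 members were higher with edgeR, 8 with DESeq2 and 15 with limma, where 10.7%, 12.1% and 12.1% of all tested miRNAs were higher. The edgeR count rested on single libraries: it was 2 without the R2i library of RB20 (6.95% of all tested), 5 without the 2i library of RB20 (5.48%) and 6 without the 2i library of RB18 (7.72%). The lowest adjusted p was 0.16 (edgeR). miR-466c-3p, for example, had a log2 fold change of 0.87 (SE 0.25, adjusted p = 0.16, edgeR), and miR-466c-5p one of 0.70 (SE 0.29, adjusted p = 0.26, edgeR). A difference of this size between the inhibitor media was therefore not established for any single member at this depth and number of libraries.

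**Figure D3:**
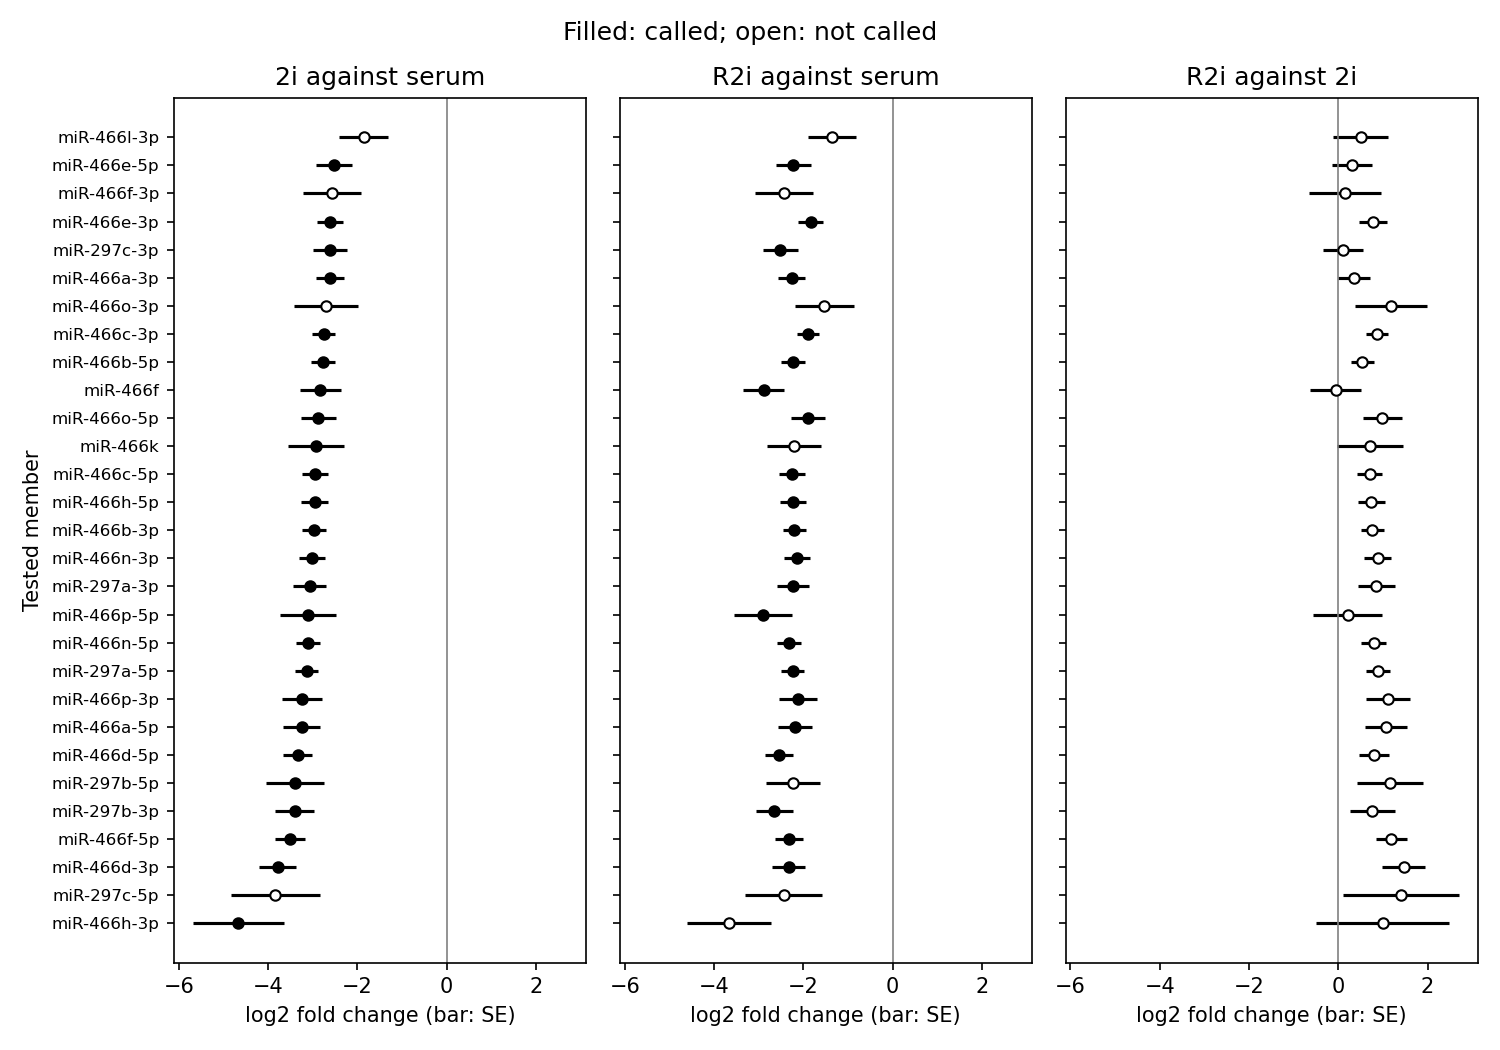
Log2 fold change (horizontal axis) with its standard error as a bar for the 29 tested members, in 2i against serum, R2i against serum and R2i against 2i. Filled points were called and open points were not; all points lie below 0 in the comparisons with serum, with medians of -2.97 and -2.23, and 28 of 29 lie above 0 in R2i against 2i, where none was called.

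Members from Sfmbt2 only and members with an additional gene elsewhere had similar changes. The median log2 fold change in 2i against serum was -2.97 over the 23 tested members from Sfmbt2 only and -3.07 over the 5 with genes inside and outside it. In R2i against serum the medians were -2.23 and -2.32. miR-466k, from outside, had log2 fold changes of -2.93 (SE 0.62, adjusted p = 0.0055, edgeR) and -2.21 (SE 0.60, adjusted p = 0.018, edgeR), of which the second was not called and the first lost its call with the line as a block. It passed the filter through serum alone, so that negative values were built into its selection, and its reads could not be separated here from those of similar copies. The differences between these groups were not tested.

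All tested 5p and 3p arms had negative log2 fold changes against serum. Of the 13 tested 5p arms 12 were called lower in 2i, with a median of -3.11, and of the 14 tested 3p arms 11 were, with a median of -2.86, where 17.3% of all tested miRNAs were called lower. In R2i the numbers were 11 and 10, against 15.6% of all. Of the arms that would have passed the filter without serum, 11 of 11 5p and 8 of 8 3p arms were called in 2i, and 10 and 8 in R2i. Of all 530 miRNAs that passed without serum, 15.5% were called lower in 2i and 15.1% in R2i. Over all members with a named arm, 5p arms took 57.0% of the counts (95% Wilson interval 55.3 to 58.6) in the serum library of RB18 and 64.2% (62.7 to 65.6) in that of RB20. They took 58.3% and 60.1% in 2i, and 59.4% and 57.7% in R2i. The shares of the 3 media overlapped.

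The balance of the arms differed between hairpins. In miR-466c the 5p arm took between 69.6% and 78.2% of the counts of the hairpin in the 6 libraries. In miR-466h it took between 91.6% and 100.0%. In miR-466b the 5p arm took between 36.9% and 47.3%, and the 95% Wilson interval reached past an even split in both 2i libraries and in the R2i library of RB18. The rows of miR-466b and miR-466c together made up 49.9% and 50.0% of all member counts with serum, 56.5% and 49.5% with 2i, and 51.1% and 52.0% with R2i.

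Hairpins with a single gene inside Sfmbt2 could be placed along the cluster. Summed over the rows of each, the level in serum (RB18 and RB20) was 4.93 and 5.45 CPM for miR-466m, the first hairpin of these families. It was 71.2 and 55.5 CPM for miR-466e, 12.42 kb further on, and 196 and 186 CPM for miR-466n at 47.08 kb. As the reads were assigned, levels did not follow position in a simple way. miR-466g, at 47.93 kb and next after miR-466n among hairpins of these families, had 2.74 and 2.48 CPM. It has a single row, whereas miR-466n has a row for each arm. How reads of similar copies were split is uncertain, and hairpins with several genes are left out here. miR-466d, at 45.3 kb, had 126 and 151 CPM, and miR-466l, at 49.43 kb, had 9.86 and 9.91. Neighbours such as miR-466n and miR-466g differed by far more than the lines did.

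**Figure D4:**
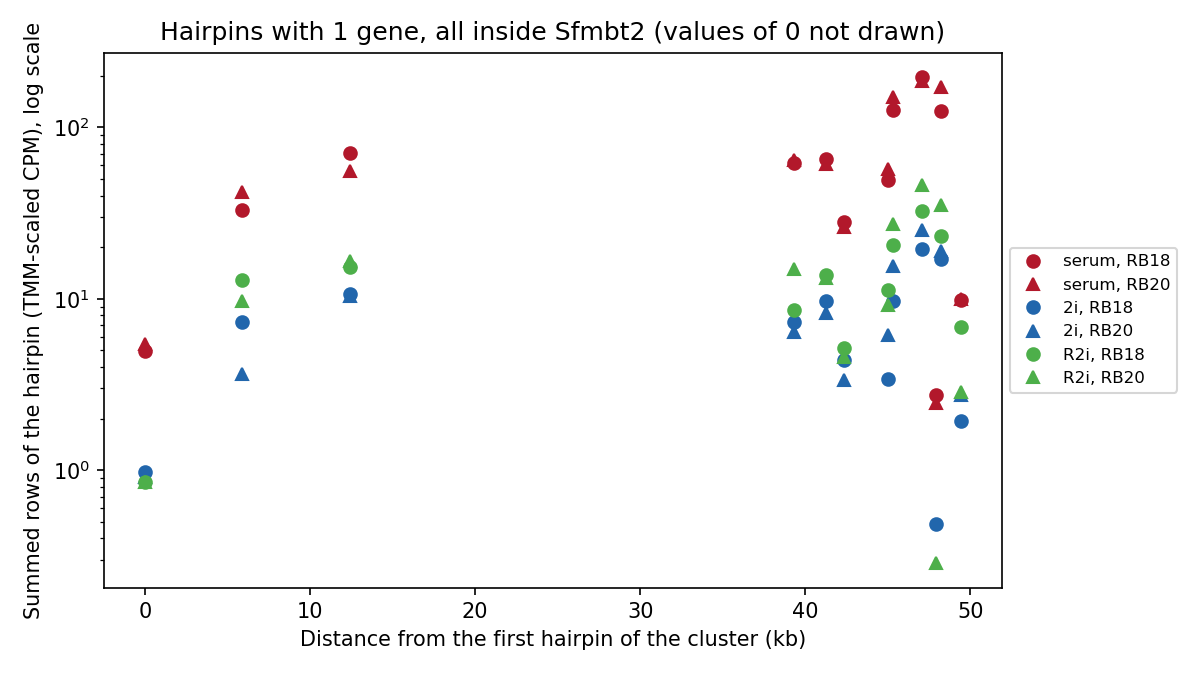
Summed level of each hairpin with 1 gene, inside Sfmbt2 (TMM-scaled CPM, log axis), against its distance in kb from the first hairpin of the miR-466 and miR-297 families, with 1 point per library and values of 0 not drawn. Serum values run from 2.48 CPM for miR-466g to 196 CPM for miR-466n.

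The miR-467 and miR-669 families of the same cluster were more abundant and showed the same order of media. miR-467 held 8808 and 11219 counts in serum, a mean share of 0.503%, against 0.0501% and 0.0494% under 2i and 0.0969% and 0.0862% under R2i. In the same order, miR-669 took 0.624% and 0.606%, 0.0828% and 0.0742%, and 0.149% and 0.136%. Of the 9 tested miR-467 rows 9 were called lower in 2i and 8 in R2i, with medians of -3.22 and -2.38. Of the 19 tested miR-669 rows 19 were called in 2i and 17 in R2i, with medians of -3.09 and -2.29. The medians of the miR-466 and miR-297 members, -2.97 and -2.23, lay close to these, and differences between the families were not tested. Without these families, 46 of the other 514 tested miRNAs were called lower in 2i and 42 in R2i.

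Markers of ESCs were abundant in each library, and some markers of ESCs and of other cell types moved with medium. All 6 ESC markers (miR-290a-5p, miR-291a-3p, miR-292a-3p, miR-293-3p, miR-294-3p and miR-295-3p) had counts, and miR-295-3p, the most abundant, had between 171000 and 258000 CPM. Both serum libraries were above all others for miR-290a-5p (2970 and 2860 CPM against at most 2420) and miR-292a-3p (37000 and 35100 against at most 31500). The same held for miR-294-3p (28300 and 26000 against at most 22700), but not for miR-291a-3p, miR-293-3p and miR-295-3p. The 3 muscle markers summed to 79.4 and 46.6 CPM in serum, 0.486 and 0.305 with 2i, and at most 7.72 with R2i, the same order of media as the miR-466 and miR-297 members. In R2i (RB18 and RB20) miR-1a-3p had 7 and 9 counts and miR-133a-3p 2 and 5. miR-133a-3p was the most abundant in the serum library of RB18 and miR-1a-3p in that of RB20. miR-1a-3p had 0 counts in both 2i libraries, and miR-206-3p had 3 counts in 1 serum library and 0 in the others. The sum of the 3 neural markers was also highest in serum, at 765 and 557 CPM against 526 and 434 with 2i and 463 and 500 with R2i. Of these markers, miR-9-3p alone had both serum libraries above all others. miR-124-3p, the most abundant, had 623 and 338 CPM with serum, 447 and 342 with 2i, and 312 and 344 with R2i, so that its media overlapped. The part of such cells in the levels of the members was not tested.

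In the summed mesenchyme, endoderm and blood lists the serum libraries were not both above all others. Of the single markers in these lists, miR-122-5p alone had both serum libraries highest, at 2.74 and 3.47 CPM against at most 1.83. The 5 mesenchyme markers, led by miR-143-3p, summed to 1430 and 2050 CPM with serum, 3330 and 3650 with 2i, and 2410 and 2420 with R2i. In the same order of media, the 4 endoderm markers, led by miR-192-5p, summed to 1410 and 2020, 1470 and 2040, and 1680 and 2470 CPM. The 4 blood markers, led by miR-142a-5p and with miR-223-3p at 0 in all libraries, summed to 2530 and 2840, 4790 and 1800, and 740 and 322 CPM.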

How the data were processed

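Counts were deposited by the authors as whole numbers of reads for 1907 mature miRNAs, without normalization. The submitters' processing notes name FastQC 0.11.5, cutadapt 1.3, Bowtie 1.1.2, featureCounts 1.5 and the build mm10. How reads matching several similar copies were assigned is not given in the sources used here, so the split between members is uncertain. The log2 values deposited by the authors for 1233 miRNAs equalled log2(count / size factor + 1) to within 0.005, with median-of-ratios size factors computed here, and served as an alternative.

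Libraries were grouped by medium from their labels. edgeR 4.0.16 in R 4.3.3 was used with TMM scaling, filterByExpr (minimum count 10, total 15) and its quasi-likelihood test, where each medium had 1 coefficient and all 6 libraries entered; the common biological coefficient of variation was 24.6%. Standard errors are the log2 fold change over the square root of F. The fit was tested on simulated data. DESeq2 1.42.0, limma 3.58.1 and the other alternatives are described with their effects. The labels name the same cell lines in each medium, which pairs the libraries; deviations from the medium mean correlated at 0.211 (serum with 2i), 0.243 (2i with R2i) and -0.128 (serum with R2i). Genes were placed by GENCODE and RefSeq names on GRCm38, and the gene named Mir466, without a letter, was taken as that of miR-466a.

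Named were the 8 members with the highest mean CPM, the 3 called members with the largest change per comparison and direction that moved alike in both lines, and any tested member with the opposite sign in both comparisons with serum (there were 0). Rules on shared sequences and seeds could be applied only to the 4 members with a sequence. miR-466k, the members not called or not tested, and the hairpins placed along the cluster were named after their values were seen. The members and lists were chosen with earlier results of these data known. Summaries used pandas 2.3.3 with numpy 2.4.6 under Python 3.11.15, intervals and permutations came from scipy 1.17.1, and plots from matplotlib 3.10.9.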

Additional observations from a re-analysis of the deposited data

Results flagged for a closer look

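In R2i against 2i, 5 of the 29 tested members had opposite signs in the cell lines. Over all 571 tested miRNAs, 211 were lower and 198 higher in both lines. These differences between lines were not tested and rest on 1 library per line and medium. The log2 difference for miR-466h-3p was -1.08 in RB18 and 1.21 in RB20, from at most 4 counts per library. For miR-466p-5p it was 0.93 in RB18 and -0.17 in RB20, and for miR-466f -0.61 in RB18 and 0.42 in RB20. For miR-466f-3p it was -0.43 in RB18 and 0.37 in RB20, and for miR-466l-3p 1.1 in RB18 and -0.07 in RB20.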

How the results depend on the processing

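The direction of all 29 tested members against serum was the same with DESeq2, library totals, limma, the block and each library left out. Library totals in place of TMM moved the median of all tested miRNAs by 0.11 in R2i against serum. Requiring 10 counts in every library left 12 members to test, of which 12 were called lower in 2i (17.2% of 402 miRNAs) and 12 in R2i (16.9%). Without a filter 28 and 25 of 36 were called (10.1% and 9.0% of all miRNAs then tested), and 1 of the 36, among those with too few counts for the test, was higher in R2i than in serum. With the cell line as a replicate block 23 members were called lower in 2i (15.4% of all tested), 21 in R2i (13.8%) and 0 in R2i against 2i; miR-466h-3p (log2 fold change -4.69, from -4.67) and miR-466k (-2.93 in both) lost their call in 2i and miR-466p-3p (-2.08, from -2.12) in R2i (adjusted p = 0.012, edgeR), and the block changed no other call of a member. With the line names of R2i exchanged in the block, an alternative chosen after seeing the data, 21 were called lower in R2i (14.5% of all tested).

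With each library left out in turn, a lone library being assumed to vary like the others, 20 to 24 members were called lower in 2i (9.63% to 15.3% of all tested), 11 to 24 in R2i (8.77% to 14.9%), and 0 in R2i against 2i; 0 were called higher in any comparison. The medians ran from -3.02 to -2.69 for 2i against serum, -2.36 to -2.20 for R2i against serum and 0.66 to 0.85 for R2i against 2i, and the share from 0.191% to 0.208% in serum, 0.0244% to 0.0272% with 2i and 0.0453% to 0.0455% with R2i. Without the 5 most abundant miRNAs in the denominator, the mean share became 0.367% for serum, 0.0511% for 2i and 0.0856% for R2i, and with members from Sfmbt2 only 0.178%, 0.0233% and 0.0406%.

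In R2i against 2i, where no member was called, the sign turned when some single libraries were left out, with values from -2.89 to 4.03 for miR-466h-3p (-0.24 and -2.89 without the 2i or the R2i library of RB20), from -0.47 to 2.32 for miR-466p-5p (-0.47 without the 2i library of RB18, -0.44 without the R2i library of RB20) and from -0.56 to 0.43 for miR-466f (0.43 without the 2i library of RB18). miR-466f-3p turned from 0.15 to -0.21 and -0.40 without the 2i or the R2i library of RB20, and was near 0 with limma. The cause was not tested. Summing identical mature sequences merged no members, since 4 of them have a sequence in the table used. It gave 25 calls in 2i and 22 in R2i (17.4% and 15.6% of all 569 then tested). Members with few counts, the R2i library of RB18 above all, limit what depth can show.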
